A study of Mus musculus with 8 samples.

Results

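The cathepsins are the main proteases of lysosomes, and 10 of their genes, Ctsk, Ctsl, Ctsb, Ctsd, Ctss, Ctsz, Ctsa, Ctsc, Ctsh and Ctso, were followed in CD11b+ cells after anti-LIF treatment, with Ctsk set against the other 9. They were taken by symbol from 22180 genes measured on Affymetrix Mouse Gene 2.1 ST arrays. Each of the 10 had exactly 1 array feature with that symbol alone, and no feature with several symbols held any of them. The CD11b+ cells came from the ascitic fluid of female C57BL/6 mice, 8 weeks old at inoculation, that carried tumors of ID8, a mouse ovarian cancer cell line grown in the peritoneum. The control group held 4 mice (1 to 4), which the labels call untreated while the methods of the study describe a control IgG. The anti-LIF group held 4 mice (5 to 8) given a neutralizing antibody against the cytokine LIF from day 12 after inoculation, 2 times a week for 25 days, as the labels state, while a figure legend of the study puts the start later. RNA of each numbered mouse was hybridized to 1 array, and the values are log2 intensities after RMA normalization, so that a difference of 1 is a doubling. Anti-CD11b beads do not separate macrophages from monocytes or neutrophils, and ID8 is a single tumor line. Signal of tumor and mesothelial markers was present too, as given below.

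Cathepsins are made as inactive precursors, carried to the lysosome largely by mannose 6-phosphate receptors, and activated there by acid pH and by other proteases. Most are cysteine proteases (B, C, H, K, L, O, S, Z), whereas cathepsin D is an aspartic protease and cathepsin A a serine carboxypeptidase. Macrophages contain many of them, use them to digest ingested protein and to prepare antigens, and can release them into the matrix of tumors. Their cysteine members are held in check by cystatins and stefins.

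The promoters of 8 of the 10 genes were found in the RefSeq sequences of the build GRCm38.p6, each as 300 bases from 250 before to 50 after the transcript start, with 2 entries for Ctsa. Those of Ctsk and Ctss are shown because the genes are neighbors on chromosome 3, with no other protein-coding gene between them, and changed to a different extent. Those of Ctsd and Ctsa are shown because they hold the E-box of the kind bound by TFEB, TFE3 and MITF, transcription factors of lysosomal genes. The windows run 5′ to 3′ and were cut at base 30 of the transcript. They lie at chr3:95498960-95499239 (plus strand), chr3:95526536-95526815 (plus strand), chr7:142387798-142388077 (minus strand) and chr2:164833523-164833802 (plus strand, the downstream of its entries). Capitals mark the letters searched on both strands, TCANGTGA (the lysosomal type of E-box), CACGTG (any E-box of that core, which can lie within the first), TTCNNNGAA (the STAT pattern), TGANTCA (the AP-1 pattern) and GAGGAA (the core of PU.1 sites), which reads TTCCTC on the other strand.
Ctsk promoter: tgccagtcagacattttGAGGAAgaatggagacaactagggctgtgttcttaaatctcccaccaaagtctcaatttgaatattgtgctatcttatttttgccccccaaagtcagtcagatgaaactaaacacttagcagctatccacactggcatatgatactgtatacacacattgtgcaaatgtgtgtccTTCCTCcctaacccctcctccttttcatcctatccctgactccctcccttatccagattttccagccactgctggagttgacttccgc
Ctss promoter: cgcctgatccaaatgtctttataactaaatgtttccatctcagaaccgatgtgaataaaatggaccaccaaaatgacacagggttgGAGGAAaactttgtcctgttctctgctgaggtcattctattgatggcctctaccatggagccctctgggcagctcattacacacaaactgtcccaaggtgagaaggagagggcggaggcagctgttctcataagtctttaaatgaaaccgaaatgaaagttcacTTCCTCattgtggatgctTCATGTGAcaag
Ctsd promoter: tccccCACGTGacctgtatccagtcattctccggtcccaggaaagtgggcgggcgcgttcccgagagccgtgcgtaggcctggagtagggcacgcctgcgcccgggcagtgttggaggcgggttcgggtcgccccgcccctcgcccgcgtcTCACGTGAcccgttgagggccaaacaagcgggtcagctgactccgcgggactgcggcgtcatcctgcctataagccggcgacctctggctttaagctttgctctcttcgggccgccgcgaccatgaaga
Ctsa promoter: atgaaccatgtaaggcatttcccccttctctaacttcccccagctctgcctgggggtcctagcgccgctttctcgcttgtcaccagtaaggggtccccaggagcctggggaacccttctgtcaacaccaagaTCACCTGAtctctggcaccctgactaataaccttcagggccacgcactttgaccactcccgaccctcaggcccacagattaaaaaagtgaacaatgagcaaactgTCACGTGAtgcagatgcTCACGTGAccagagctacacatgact
The pattern TCANGTGA occurred in the promoters of Ctsd (first base at -99), Ctss (19) and Ctsa (-118, -13 and 5 in the entry shown). It occurs in 4.179% of 32851 promoters of this length. The pattern also admits other cores than CACGTG, and the Ctsa match at -118 (TCACCTGA) and that of Ctss (TCATGTGA) lack this core. The CACGTG core occurred in those of Ctsd, Ctsa and Ctsl, where it began at base -236, and in 7.15% of all promoters. GAGGAA occurred 2 times each in those of Ctsk, Ctss and Ctsc, and at least once in 28.276% of all. The STAT pattern occurred in that of Ctsc alone (8.298% of all), and AP-1 in none of the 9 entries (7.808% of all). The windows of Ctsz, Ctso and the other Ctsa entry held none of the 5 patterns. A match of letters is not a measured binding site.

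After anti-LIF treatment 7 of the 10 cathepsin genes were lower at the study's threshold of an adjusted p under 0.1 (limma, adjusted over all 22180 genes), namely Ctsk, Ctsl, Ctsb, Ctsa, Ctso, Ctsh and Ctsd. None was higher, and Ctsc, Ctsz and Ctss did not pass. Of all genes, 11.0% were called lower and 5.79% higher, and 34.4% of all calls were thus upward, or 18.7% after median centring of each array. The median log2 fold change of the 10 was -0.55, beside 0.03 over all genes. Their control means lay at percentiles 74.2 to 99.7 of all genes, and genes at higher levels fell more often. In a fit limited to genes above the median level, the median over those genes was -0.12. That fit tested fewer genes than the 22180 of the main fit and adjusted p over those alone. It called 3100 genes lower, beside 2448 in the main fit, and 8 of the 10 cathepsins. The share of its genes called lower was thus larger than the 11.0% of the main fit. In 6 of the 10 every anti-LIF treated mouse lay below every control mouse, which 11.9% of all genes did. Ctsk was the 1 member called lower with a log2 fold change below -1.5, beside 0.316% of all genes. In a bulk sample fewer cells of a type and less RNA per cell cannot be told apart.

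**Figure D1:**
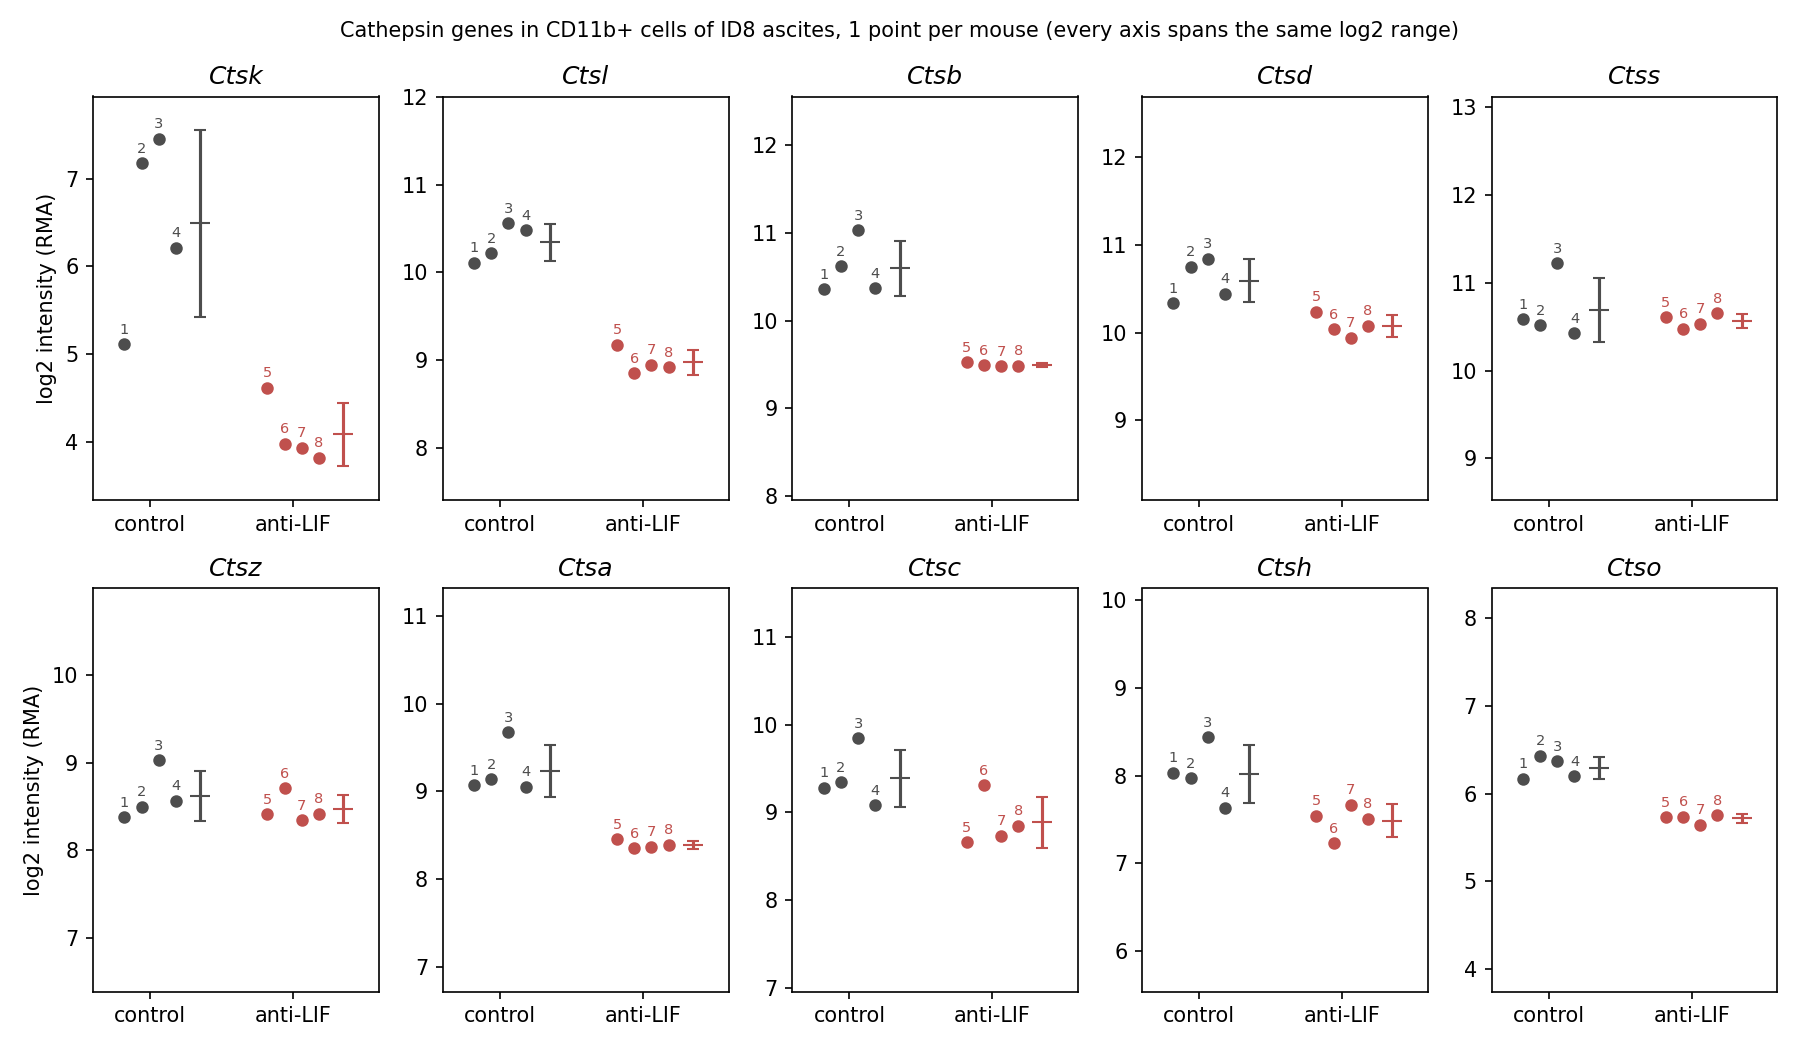
Log2 RMA intensity of the 10 cathepsin genes in CD11b+ cells, 1 point per mouse (gray, control mice 1 to 4, and red, anti-LIF mice 5 to 8), with the mean and SD of each group beside the points. Every axis spans the same log2 range, and Ctsk shows the widest gap between the group means (6.49 and 4.09) and the widest spread among control mice.

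Ctsk encodes cathepsin K, which cleaves collagen and elastin and is best known as the bone-resorbing protease of osteoclasts. Its log2 values were 5.11, 7.18, 7.46 and 6.21 in control mice 1 to 4, and 4.62, 3.98, 3.93 and 3.82 in anti-LIF mice 5 to 8. The groups did not overlap, but control mouse 1 lay 0.50 above the highest treated mouse and well below the other controls. The mean went from 6.49 ± 1.06 (SD, n = 4) down to 4.09 ± 0.36 (SD, n = 4), a 5.29-fold decrease (log2 fold change -2.40, standard error (SE) 0.42, 95% interval -3.32 to -1.49, limma adjusted p = 0.0063). This was the 11th lowest log2 fold change of the 22180 genes. The treated values all lay below the median over genes of their own arrays (4.64 to 4.65). No background level was set, so the exact size of the decrease is uncertain. The log2 fold change of Ctsk depended in part on single control mice. It was -2.86 without control mouse 1 and -2.08 without control mouse 3, and passed the test either way.

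Ctsl and Ctsb, which encode the broadly acting lysosomal endopeptidases cathepsin L and cathepsin B, had the next largest decreases. Ctsl was at 10.11, 10.22, 10.56 and 10.48 in control mice and at 9.18, 8.85, 8.95 and 8.92 in treated mice. Its mean went from 10.34 ± 0.21 (SD, n = 4) to 8.97 ± 0.14 (SD, n = 4), a 2.59-fold decrease (log2 fold change -1.37, SE 0.14, limma adjusted p = 7.9e-04). The gap between the closest mice of the groups, 0.93, was the widest of the 10 genes and exceeded the range within either group. Ctsb was at 10.36, 10.62, 11.03 and 10.37 in control mice and at 9.53, 9.49, 9.48 and 9.49 in treated mice. The treated mice were nearly identical, with an SD of 0.022 beside 0.32 in controls. The mean was 2.14-fold lower, at 9.50 against 10.60 (log2 fold change -1.10, SE 0.16, limma adjusted p = 0.0030).

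Ctsd encodes the aspartic protease cathepsin D, and Ctsa the carboxypeptidase cathepsin A, which also protects lysosomal neuraminidase and beta-galactosidase from degradation. Ctsa was at 9.07, 9.14, 9.67 and 9.05 in control mice and at 8.46, 8.35, 8.37 and 8.39 in treated mice. Control mouse 3 stood above the other 3 controls, and all 4 treated mice lay below every control. The mean of Ctsa went from 9.23 ± 0.30 (SD, n = 4) to 8.39 ± 0.046 (SD, n = 4), 1.79-fold lower (log2 fold change -0.84, SE 0.15, limma adjusted p = 0.0071). Ctsd was at 10.34, 10.75, 10.85 and 10.45 in control mice and at 10.24, 10.04, 9.94 and 10.08 in treated mice. The groups were separated by 0.09, the distance between control mouse 1 and treated mouse 5. Its decrease was 1.43-fold, from 10.60 ± 0.24 (SD, n = 4) to 10.08 ± 0.13 (SD, n = 4) (log2 fold change -0.52, SE 0.15, limma adjusted p = 0.044). Ctsd did not pass without control mouse 2 (-0.47, adjusted p = 0.12), control mouse 3 (-0.44, adjusted p = 0.11) or treated mouse 7 (-0.47, adjusted p = 0.11). Nor did it pass with all arrays quantile normalized again (-0.36, limma adjusted p = 0.19).

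Ctso, the gene of cathepsin O, a cysteine protease of less studied function, showed a small decrease with little spread. It was at 6.17, 6.43, 6.37 and 6.20 in control mice and at 5.73, 5.74, 5.64 and 5.75 in treated mice. The ranges did not overlap, and the mean was 1.49-fold lower (6.29 ± 0.13 against 5.72 ± 0.049, SD, n = 4 each, log2 fold change -0.58, SE 0.12, limma adjusted p = 0.012). Ctsh encodes cathepsin H, an aminopeptidase, and was at 8.04, 7.97, 8.44 and 7.64 in control mice and at 7.55, 7.23, 7.67 and 7.51 in treated mice. Control mouse 4 lay just below treated mouse 7, so the groups overlapped. Ctsh was called lower by 1.45-fold, from 8.02 ± 0.33 (SD, n = 4) to 7.49 ± 0.19 (SD, n = 4) (log2 fold change -0.53, SE 0.17, limma adjusted p = 0.075). It did not pass without control mouse 1 (-0.53), 2 (-0.55) or 3 (-0.39), or without treated mouse 5 (-0.55), 6 (-0.45) or 8 (-0.54), with adjusted p from 0.11 to 0.17. With all arrays quantile normalized again Ctsh did not pass either (-0.38, limma adjusted p = 0.23).

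The remaining 3 genes did not pass the test. Ctsc encodes cathepsin C, the dipeptidyl peptidase that activates the serine proteases of neutrophil and cytotoxic granules. It was at 9.28, 9.35, 9.85 and 9.08 in control mice and at 8.66, 9.31, 8.73 and 8.85 in treated mice. Treated mouse 6 lay within the control range and the other 3 treated mice below it. Its change on the log2 scale was -0.50 (SE 0.19, 95% interval -0.92 to -0.085, limma adjusted p = 0.12), and it passed without treated mouse 6 (-0.64, adjusted p = 0.056) or control mouse 4 (-0.60, adjusted p = 0.094).

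Ctss encodes cathepsin S, which trims the invariant chain of MHC class II in antigen-presenting cells and remains active at neutral pH. It was at 10.58, 10.52, 11.22 and 10.43 in control mice and at 10.61, 10.48, 10.54 and 10.66 in treated mice. All 4 treated mice lay within the control range. The log2 fold change was -0.12 (SE 0.17, limma adjusted p = 0.70), and its 95% interval of -0.49 to 0.26 leaves room for a modest change either way. Without control mouse 3 it was 0.06 (adjusted p = 0.82). Ctsz, the gene of the carboxypeptidase cathepsin Z, was at 8.38, 8.50, 9.03 and 8.57 in control mice and at 8.41, 8.71, 8.34 and 8.42 in treated mice. The groups overlapped, and the change was -0.15 on the log2 scale (SE 0.16, 95% interval -0.50 to 0.20, limma adjusted p = 0.59). It turned to 0.01 when the arrays were quantile normalized again.

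The 10 genes varied together between control mice. Control mouse 3 had the highest value of its group for 9 of the 10, all but Ctso. Over all features its array also had the lowest median (4.38) and the largest SD (2.07) of any array. The groups differed in the same way. Medians ran from 4.38 to 4.50 in control and from 4.52 to 4.57 in treated arrays. SDs ran from 2.02 to 2.07 in control and from 1.95 to 1.97 in treated arrays. With the arrays quantile normalized again 5 of the 10 were called lower. Ctsk was then at -2.40, Ctsl at -1.22, Ctsb at -0.96 and Ctsd at -0.36. The part of this array-wide spread was not tested. The lowest control value was that of mouse 1 for 6 genes (Ctsk, Ctsl, Ctsb, Ctsd, Ctsz and Ctso) and that of mouse 4 for the other 4. Among treated mice, mouse 5 was highest for Ctsk, Ctsl, Ctsb, Ctsd and Ctsa, and mouse 6 for Ctsz and Ctsc. Without control mouse 3, 5 of the 10 were called lower (Ctsk, Ctsl, Ctsb, Ctsa and Ctso), and these 5 were called under every planned setting. The count was also 5 without control mouse 2, and 8 without control mouse 4, when Ctsc passed too.

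Ctsk was also set against each of the other cathepsins. The study had already named it among the genes lowered in these same arrays. The choice of Ctsk was thus not independent of the values, and the p-values below do not allow for that. Levels of different probes are not comparable, so the difference between Ctsk and each other gene was taken within each mouse. It was then compared between the groups, for 9 pairs. This removes a fixed offset between probes, but whether they respond alike to a change in RNA was not tested. In every pair the log2 fold change of Ctsk was the lower. The 9 pairs share the same Ctsk values, so they are not independent comparisons. Against Ctss the difference of the log2 fold changes was -2.28 (SE 0.49, 95% interval -3.49 to -1.08), the largest of the 9. Against Ctsz it was -2.26 (interval -3.44 to -1.07), and against Ctsd -1.89 (interval -2.95 to -0.82). Those against Ctsh and Ctso were -1.87 and -1.83. In these 5 pairs the groups did not overlap (exact two-sided permutation test, p = 0.029 for each, the smallest p that 4 mice against 4 allow, and 0.051 after adjustment over the 9 pairs).

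The other 4 pairs overlapped. Against Ctsc the difference was -1.90 (95% interval -3.19 to -0.62), against Ctsa -1.56 (interval -2.72 to -0.40) and against Ctsb -1.30 (interval -2.39 to -0.22), each with an exact two-sided permutation p of 0.057 (0.064 after adjustment). Ctsl was closest to Ctsk, with a difference of -1.03, an interval of -2.23 to 0.16 that spans 0, and an exact two-sided permutation p of 0.086 (0.086 after adjustment). Without control mouse 1, whose Ctsk value was the lowest of the controls, the difference from Ctsl was -1.41 and that from Ctss -2.71. As a description, Ctsk minus the mean of the other 9 genes was -4.03, -2.10, -2.21 and -2.93 in control mice 1 to 4 and -4.09, -4.71, -4.70 and -4.86 in treated mice 5 to 8. Control mouse 1 was thus 0.06 above the nearest treated mouse in this measure. The mean of the other 9 went from 9.31 ± 0.25 (SD, n = 4) to 8.67 ± 0.033 (SD, n = 4), a change of -0.63 beside the -2.40 of Ctsk.

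**Figure D2:**
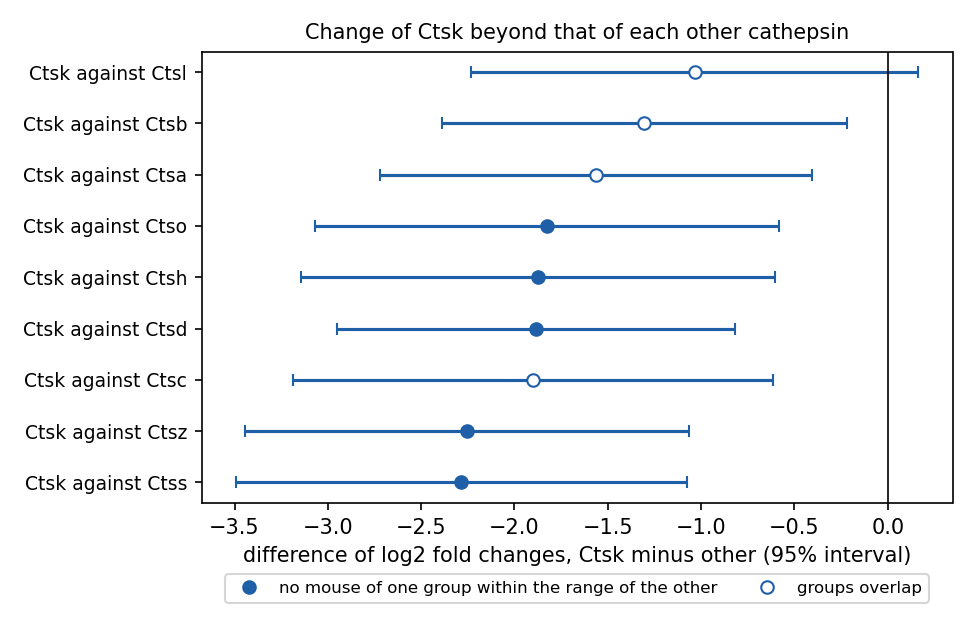
Difference between the log2 fold change of Ctsk and that of each of the other 9 cathepsin genes (x axis, log2 units), with 95% intervals over 4 control and 4 anti-LIF mice. Filled points mark the 5 pairs whose groups did not overlap, and the interval against Ctsl, from -2.23 to 0.16, is the 1 that includes 0.

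The genes whose profiles over the 8 arrays, each centred on its own mean, were nearest to that of Ctsk were Ccl7, Cd36, Gpnmb, Rps27 and St8sia4, at root mean square differences of 0.440, 0.463, 0.473, 0.515 and 0.523 on the log2 scale among 18438 named genes. They encode a monocyte-attracting chemokine, a lipid scavenger receptor, a transmembrane glycoprotein, a ribosomal protein and a polysialyltransferase. Among the cathepsins Ctsl was nearest, at 0.791, and Ctss farthest, at 1.29. The likeness is a description over arrays that include the group difference.

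Outside the 10, the mouse has further cathepsin genes, among them the widely expressed Ctsf, Ctse, an aspartic protease, Ctsg of neutrophil granules, and a group found in placenta. Of 13 such genes, 1 was higher, near the 5.79% of all genes called higher, none was lower and 12 did not pass the test, with a median log2 fold change of -0.04. The higher one was Ctsw, a cysteine cathepsin of cytotoxic T and NK cells. It was at 4.08, 3.91, 3.79 and 4.17 in control mice and at 4.56, 4.71, 4.85 and 4.38 in treated mice. The groups did not overlap, which 6.53% of all genes did in this direction, and the mean went from 3.99 ± 0.17 (SD, n = 4) to 4.62 ± 0.20 (SD, n = 4) (log2 fold change 0.64, SE 0.14, limma adjusted p = 0.018). Of 10 measured T and NK cell markers, Nkg7 and Cd8a were higher in the same arrays, none was lower, and the list mean ran from 3.64 to 3.87 in control and from 3.89 to 4.44 in treated mice. The log2 of their summed level ran from 7.03 to 7.25 and from 7.38 to 7.97, and the part of such cells in the Ctsw result was not tested. Ctsf changed by -0.21 (limma adjusted p = 0.48), Ctse by -0.23 (adjusted p = 0.39) and Ctsg by 0.22 (adjusted p = 0.35) on the log2 scale.

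**Figure D3:**
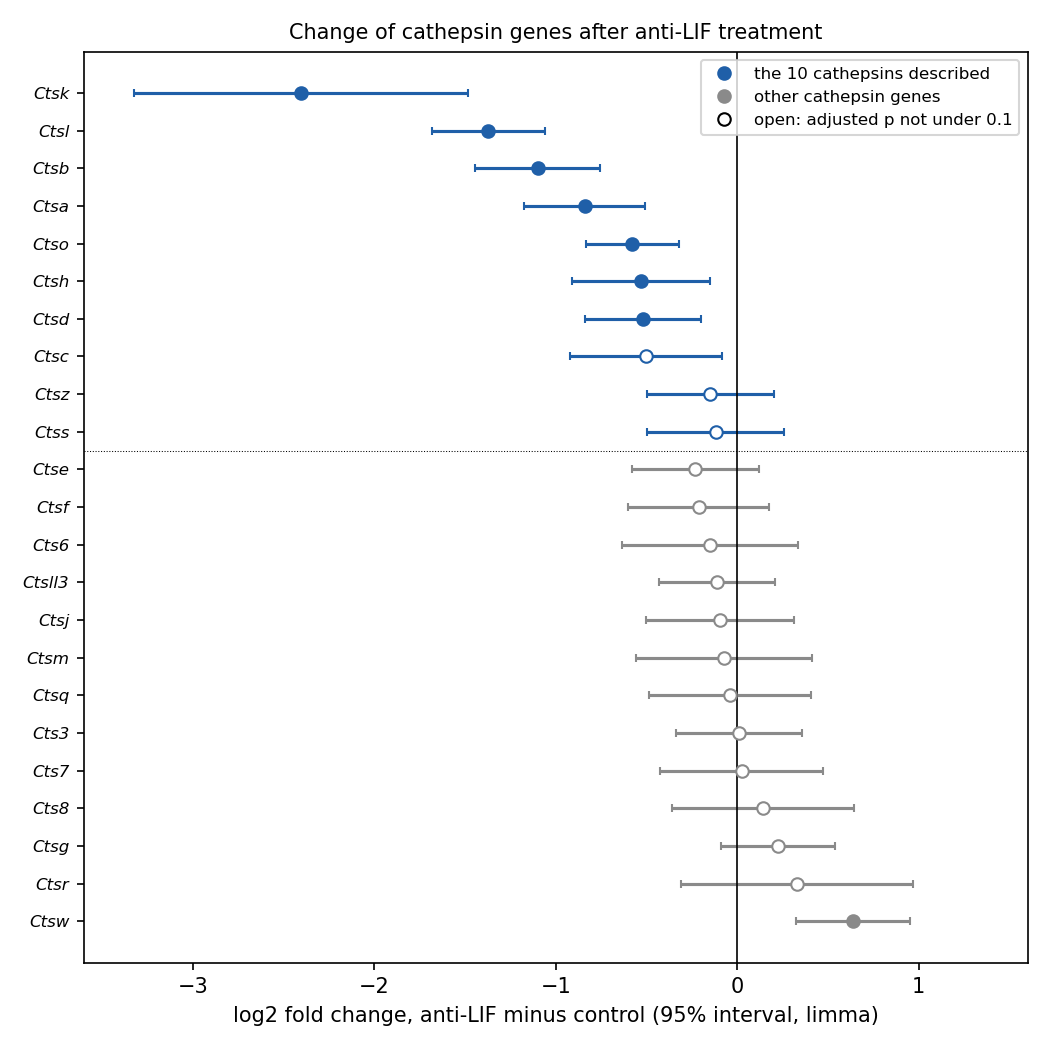
Log2 fold change (x axis, anti-LIF minus control) with its 95% interval from limma for the 10 cathepsin genes described (blue) and 13 other cathepsin genes (gray), where open points did not pass an adjusted p of 0.1. The 10 run from -2.40 to -0.12, and of the other 13 Ctsw alone passed, at 0.64.

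Genes that process, sort or inhibit cathepsins were read next, beside the 11.0% of all genes called lower. Of 8 genes of cathepsin processing and sorting, 3 were lower and 5 did not pass, with a median log2 fold change of -0.29 and none higher. Lgmn encodes legumain, an asparaginyl endopeptidase that processes cathepsins B, H and L. It was at 9.76, 9.82, 10.55 and 9.93 in control mice and at 8.93, 8.88, 8.84 and 8.90 in treated mice. All treated mice lay below the controls, and its log2 fold change was -1.13 (SE 0.17, limma adjusted p = 0.0036). Psap, the gene of prosaposin, a lysosomal protein precursor cleaved by cathepsin D, was at -0.59 (adjusted p = 0.026), and M6pr, the gene of a mannose 6-phosphate receptor, at -0.47 (adjusted p = 0.069). The call of M6pr was kept in 2 of the 8 fits that left out a mouse (-0.54 to -0.36), those without control mouse 1 or treated mouse 5, and those of Lgmn and Psap in all 8.

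Of 8 measured inhibitor genes, 3 fell and 5 did not pass (none higher), with a median of -0.28. The stefin A gene Stfa1 was at -1.29 (SE 0.36, limma adjusted p = 0.041), with overlapping groups. Cstb, which encodes stefin B, was at -0.73 (SE 0.17, adjusted p = 0.020), and Cst3, which encodes cystatin C, at -0.38 (SE 0.13, adjusted p = 0.086). For Cstb and Cst3 every treated mouse lay below every control. Cst3 kept its call in 1 of the 8 fits that left out a mouse (-0.46 to -0.31), the one without control mouse 4, and Stfa1 lost it without treated mouse 8 (adjusted p = 0.11).

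Among 9 measured genes of cathepsin substrates and partners, 1 was higher (5.79% of all genes were), none was lower and 8 did not pass, with a median of 0.20. It was the elastin gene Eln, at 6.81, 6.05, 4.63 and 5.98 in control mice and at 7.65, 7.25, 7.44 and 7.75 in treated mice. Control mouse 3 was the lowest here, and the groups did not overlap (log2 fold change 1.65, SE 0.35, limma adjusted p = 0.015). Of 11 fibroblast markers, Thy1 alone was higher (0.81, limma adjusted p = 0.037), with overlapping groups, and none was lower. Their mean ran from 4.85 to 5.25 in control and from 5.24 to 5.39 in treated mice, and the log2 of their summed level from 10.34 to 10.70 and from 10.09 to 10.60. The part of such cells in the Eln result was not tested.

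Osteoclasts, which are multinucleated cells of the macrophage lineage, express Ctsk under the transcription factors NFATc1 and MITF. Of 13 osteoclast genes other than Ctsk, 4 fell, beside 11.0% of all genes, and 9 did not pass (none higher), with a median log2 fold change of -0.28. The largest decrease was that of Atp6v0d2, a proton pump subunit gene, at -1.83 (SE 0.29, limma adjusted p = 0.0044). The gelatinase gene Mmp9 followed at -1.52 (SE 0.24, adjusted p = 0.0044), and Acp5, which encodes tartrate-resistant acid phosphatase, was at -1.05 (SE 0.24, adjusted p = 0.019). The fourth was Nfatc1, at -0.88 (adjusted p = 0.015). Of 5 transcription factor genes of lysosomes and macrophages, Tfec was lower (-0.92, SE 0.23, adjusted p = 0.028), none was higher and 4 did not pass, with a median of -0.46. The 4 were Mitf (-0.47, limma adjusted p = 0.101), Spi1 (-0.46, adjusted p = 0.24), Tfe3 (-0.07, adjusted p = 0.76) and Tfeb (-0.02, adjusted p = 0.96). Mitf passed in 2 of the 8 fits that left out a mouse.

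Some markers of macrophages were lower in the same arrays. Itgam, which encodes CD11b, was at 8.67 ± 0.36 (SD, n = 4) in control and 8.49 ± 0.22 (SD, n = 4) in treated mice (limma adjusted p = 0.59). Of 9 measured macrophage markers, 5 fell (11.0% of all genes did) and 4 did not pass (none higher), with a median log2 fold change of -0.72. The 4 were Itgam (-0.17), Lyz2 (-0.09), Csf1r (-0.33) and Aif1 (0.36). The number lower was 3 to 5 with a mouse left out. The largest decreases were those of Cd14 (-1.58, adjusted p = 0.0084), Cd68 (-1.41, adjusted p = 0.0028) and Mertk (-0.90, adjusted p = 0.026). The mean of the 9 ran from 8.57 to 9.38 in control mice, highest in mouse 3, and from 8.09 to 8.30 in treated mice, and the log2 of their summed level from 12.57 to 13.16 and from 12.28 to 12.48. Taken relative to that mean within each mouse, a choice made after these values were seen, Ctsk changed by -1.77, Ctsl by -0.74 and Ctsb by -0.47, with treated mice still below all controls (exact two-sided permutation test, p = 0.029 for each, the smallest possible). Ctsa changed by -0.21 with overlapping groups (exact two-sided permutation test, p = 0.086). Since that mean was itself lower in treated mice, a gene that fell less than the mean rises on this scale. Thus Ctss and Ctsz, at -0.12 and -0.15 without the subtraction, were higher in every treated mouse than in any control. Their changes relative to the mean were 0.51 and 0.48 (exact two-sided permutation test, p = 0.029 for each). The p-values on this scale were not adjusted over the 10 genes. Ctsd, Ctsc, Ctsh and Ctso changed by 0.11, 0.13, 0.10 and 0.06, with overlapping groups (exact two-sided permutation tests, p = 0.49, 0.66, 0.43 and 0.80).

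**Figure D4:**
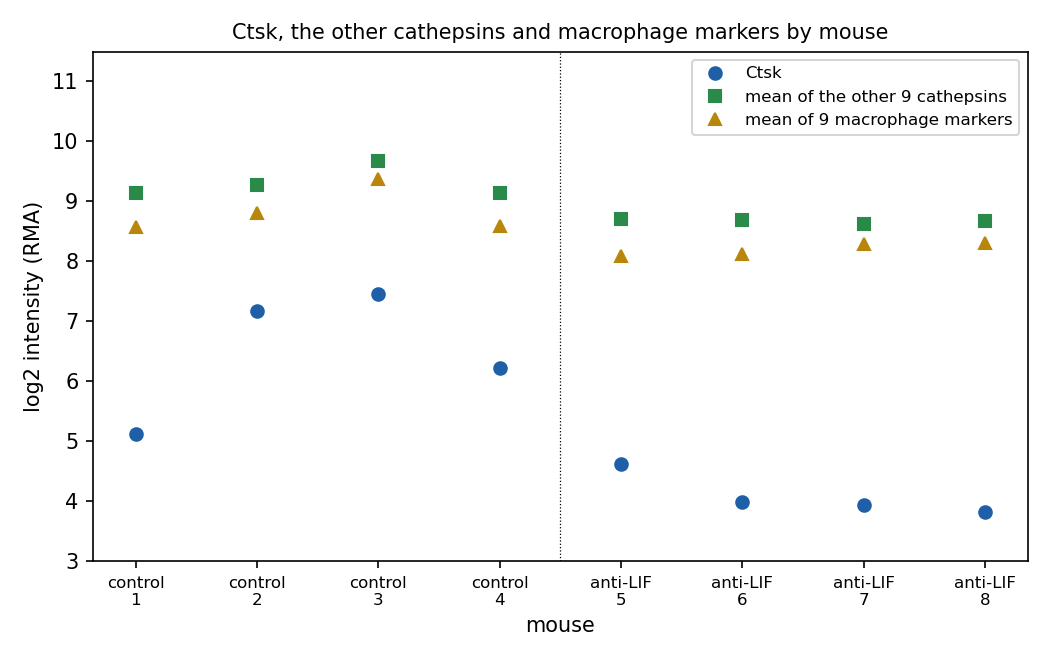
Log2 RMA intensity of Ctsk (circles), the mean of the other 9 cathepsin genes (squares) and the mean of 9 macrophage markers (triangles) in each mouse. Heights of different symbols are not comparable, since they come from different probes, but within each symbol control mouse 3 is the highest and the 4 treated mice lie below all controls.

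Markers of other cell types were also read beside these changes. Of all genes 11.0% were called lower and 5.79% higher, so 1 called gene in a list this short says little about its cell type. Of 11 neutrophil markers S100a8 was lower (-1.32, limma adjusted p = 0.036) and none was higher. Of 6 measured monocyte markers F13a1, Chil3 and Vcan were lower (-2.76, -2.67 and -1.02) and Ly6c2 was higher (1.73). Of 9 resident peritoneal macrophage markers Lyve1 was lower (-1.49) and Cd5l higher (1.07). Of 11 tumor and mesothelial markers Krt18 and Krt19 were lower, and Muc16 (1.88), Upk1b and Lrrn4 were higher. The means of these 11 ran from 6.31 (Epcam) to 10.16 (Krt18) in control mice. In treated mice they ran from 6.51 (Epcam) to 10.12 (Upk3b). All lay above the medians over genes of the arrays (4.55 to 4.65), and the share of non-myeloid cells in the samples was not measured. With a mouse left out in turn, Krt19 and Lrrn4 each kept the call in 2 of 8 fits (-0.47 to -0.33 and 0.55 to 0.97) and Vcan in 3 of 8 (-1.29 to -0.84). Of 8 measured dendritic cell markers Zbtb46 was higher (0.62), and of 6 B cell markers none passed. The log2 of the summed level of the neutrophil markers ran from 9.86 to 11.01 in control and from 9.08 to 10.06 in treated mice, that of the monocyte markers from 10.31 to 11.20 and from 8.85 to 9.96, and that of the tumor and mesothelial markers from 12.20 to 12.54 and from 12.35 to 12.63. Their part in the cathepsin results was not tested.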

How the data were processed

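CD11b+ cells from 4 control and 4 anti-LIF treated mice were assayed on 1 array each. Per the methods and the labels, the authors normalized the arrays by Robust-Microarray Average (RMA) through a service company and deposited log2 values of 41345 features, with R 3.1.2 named in their processing notes. The RMA software is not given in the sources used here, and with no scanner files used, no background level was set. Correlations between arrays ran from 0.960 to 0.974 within and from 0.935 to 0.964 across the groups. Averaging the 23521 features that had 1 symbol gave 22180 genes, without those that had several (1820) or none (16004). No filter on low values was applied.

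The comparison used lmFit and eBayes of limma 3.58.1, under R 4.3.3 and with statmod 1.5.0, with Benjamini-Hochberg adjustment over all genes and a threshold of 0.1. Single values and differences between genes were compared with exact permutation tests over the 70 assignments of the arrays. The methods name paired samples but not the pairs, so the fit had none, and all 24 pairings were tried as a block. Other alternatives changed the scaling, eBayes settings, array weights, level filter, feature choice or threshold, or left out an array. Python 3.11.15 with matplotlib 3.10.9 served for the promoter search and the figures.

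The 10 genes and the lists were chosen with earlier results of these data known, so counts over them are not independent evidence. The same holds for the comparison of Ctsk with the other cathepsins. Named besides the 10 were up to 3 called genes of a list with the largest changes (more where a count of 5 or fewer is named in full), Itgam, called cathepsins and the 5 genes nearest to Ctsk. Genes named that did not pass were chosen after their values were seen. An alignment of the proteins was not run.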

Additional observations from a re-analysis of the deposited data

Results flagged for a closer look

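Of the 22 groups of 4 mice examined, 1 held a mouse far from the other 3, and chance gives about 1 in 20 such groups. It was Ctsa in control mouse 3, at a log2 value of 9.67, where the gap to the nearest control was 0.865 of the range of the 4. Without that mouse the log2 fold change of Ctsa was -0.69 (limma adjusted p = 0.011).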

How the results depend on the processing

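Over 18 planned settings Ctsk, Ctsl, Ctsb, Ctsa and Ctso stayed lower and past the threshold. Ctsd fell short in 4 of them and Ctsh in 10, while Ctsc passed in 6. The count of cathepsins called lower was 5 to 8, and none was higher in any. The direction turned for Ctsz with quantile normalization again (0.010) and for Ctss without control mouse 3 (0.059, with -0.21 to 0.059 over the mice left out). Relative to the macrophage markers, whose mean was lower in treated mice, it turned for Ctsd (0.11), Ctss (0.51), Ctsz (0.48), Ctsc (0.13), Ctsh (0.10) and Ctso (0.056). On this scale a gene that fell less than that mean rises, and why the mean was lower was not tested. With each array left out in turn the log2 fold change of Ctsk ran from -2.86 to -2.08, that of Ctsl from -1.45 to -1.30 and that of Ctsb from -1.18 to -0.95, and the change of Ctsk minus the mean of the other 9 from -2.17 to -1.53.

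With pairs of mice as a block, in each of the 24 possible pairings, 6 or 7 cathepsins were lower. The adjusted p of Ctsk ran from 0.0051 to 0.020 and that of Ctsd from 0.046 to 0.09996, Ctsh passed in 14 pairings and Ctsc in 6, and no other cathepsin changed its call. All genes called higher numbered 1284, but 749 with arrays centred on their medians, 2038 with each feature on its own, 674 at an adjusted p under 0.05, and 802 to 1357 with an array left out. With a mouse left out, the counts of the other lists moved by at most 2 genes in either direction. The number of arrays limits the precision, and levels near background could not be told from noise.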
